A study of Mus musculus with 18 samples.

Results

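The 8 genes described here encode the subunits and inhibitors of protein kinase A (PKA), and they were taken as the rows of the count table whose mouse gene symbol was Prkaca, Prkacb, Prkar1a, Prkar1b, Prkar2a, Prkar2b, Pkia or Pkig. All 8 were found among the 54347 genes of the table, and all 8 were among the 14949 genes that passed the filter on low counts. The study asked how mature brown adipocytes change when the lncRNA Gm15551 is knocked down, at rest and under β-adrenergic stimulation. All 18 libraries came from wt1-SAM cells, 1 immortalised mouse brown preadipocyte line that stably carries the SAM system for CRISPR activation. The cells were induced to differentiate with a cocktail that included IBMX, a phosphodiesterase inhibitor, and were kept on rosiglitazone, so these agents were shared by every group. On day 4 of differentiation 500000 cells per well were reverse transfected with 1.4 µL of a 10 µM locked nucleic acid (LNA) gapmer, an antisense oligonucleotide that directs the cleavage of the RNA it binds. The gapmer was the non-targeting ctrlA or 1 of 2 gapmers against Gm15551, LNA1 and LNA2. Cells were left unstimulated or received 1 µM isoproterenol, a non-selective β-adrenergic agonist, for 24 h before harvest on day 7. The 6 groups held 3 libraries each, numbered 2, 3 and 4, and values below are given in that order.

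PKA links cAMP to the acute response of the brown adipocyte. In the resting holoenzyme, a dimer of regulatory subunits holds a pair of catalytic subunits inactive. β-adrenergic receptors act through adenylyl cyclase to raise cAMP, which binds the regulatory subunits and frees the catalytic subunits to phosphorylate targets such as hormone-sensitive lipase, perilipin 1 and CREB. Type I regulatory subunits (Prkar1a, Prkar1b) are largely cytosolic, whereas type II subunits (Prkar2a, Prkar2b) are mostly tethered by A-kinase anchoring proteins. The heat-stable inhibitors encoded by Pkia and Pkig bind free catalytic subunits as pseudosubstrates. Prkar2b is known as the main regulatory subunit of adipose tissue.

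The LNAs are shown because the groups compared below differ by them. Each sequence is written 5′ to 3′, with capitals for the bases that are complementary to Gm15551, or, for ctrlA, none.

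ctrlA: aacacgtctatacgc

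LNA1: GATGACTGAGATTAGA

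LNA2: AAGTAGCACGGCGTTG

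LNA1 and LNA2 were complementary over all 16 bases to the spliced Gm15551 transcript, at chr3:126667502-126667517 and chr3:126667608-126667623 of GRCm38, both on the minus strand and in exon 2 of 2. The members' own transcripts were searched for the longest complementary stretch of at least 6 bases. For LNA2 this stretch ran from 6 to 8 bases over the 8 members, and for LNA1 from 6 to 9 bases. For ctrlA it ran from 6 to 7 bases in the 6 members that had one. Prkacb and Prkar1b, which differed with LNA2, had stretches of 7 and 6 bases for that LNA, in capitals here.

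LNA2 against Prkacb: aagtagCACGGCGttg

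LNA2 against Prkar1b: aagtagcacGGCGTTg

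A stretch at least as long was found in 62.1% and 92.7% of the 14936 tested genes searched. The longest stretch of any member was that of Prkacb for LNA1, at 9 bases, which 12.4% of genes equalled or exceeded.

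The libraries held 9167560 to 19723021 counts, so the floor of 3 counts taken for detection lay between 0.170 and 0.306 CPM (counts scaled by TMM to a common library total). The 6 libraries numbered 2 stood apart from the other 12. They carried 7.86 to 9.79% mitochondrial counts against 2.56 to 4.97%, and 2.88 to 14.3% counts of an rRNA gene against 0.285 to 1.04%. Gm15551 was near the floor throughout, with 2 to 14 counts per ctrlA library (0.492 ± 0.267 CPM, SD, n = 6), 1 to 12 per LNA1 library (0.341 ± 0.346 CPM, n = 6) and 1 to 13 per LNA2 library (0.367 ± 0.373 CPM, n = 6). A knockdown could thus not be checked in these counts at this depth. The paper itself reported that both targeting LNAs robustly lowered Gm15551 on day 7, relative to the non-targeting LNA. Adipocyte markers summed to 12496 to 26560 CPM per library and brown adipocyte markers to 206 to 458 CPM. Preadipocyte or fibroblast markers summed to 226 to 534 CPM and immune markers to 7.89 to 42.8 CPM. Skeletal muscle markers summed to 1.19 to 4.79 CPM and endothelial markers to 1.67 to 4.35 CPM. The immune markers Ptprc and Adgre1 and the muscle markers Myod1, Myog and Myh1 had at most 3 counts in any library. So did Thy1 of the preadipocyte or fibroblast list and Kdr of the endothelial list.

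All 8 PKA genes were detected in every library. Per kilobase of exon, Prkar2b was highest at 106 ± 16.5 CPM, followed by Prkaca at 83.7 ± 20.3 and Prkar1a at 66.3 ± 7.17 CPM per kb (SD, n = 18). Prkar2a (20.6 ± 3.12), Pkig (13.0 ± 2.57) and Prkacb (7.47 ± 1.87) formed the middle of the order. Prkar1b (3.92 ± 1.19) and Pkia (1.89 ± 0.881 CPM per kb) were lowest. Prkar2b exceeded Prkaca in 14 of 18 libraries, and Prkaca exceeded Prkar1a in 12 of 18, so the order among these 3 was not the same in every library. Prkar1a was above Prkar2a, and Pkig above Prkacb, in 18 of 18. Prkar2a was above Pkig in 15 of 18, Prkacb above Prkar1b in 16 of 18 and Prkar1b above Pkia in 16 of 18. The place of Pkig depended on the length used. With the longest coding transcript in place of all exons, Pkig stood at 49.1 and Prkar2a at 26.5 CPM per kb, and Prkar2a was above Pkig in 0 of 18 libraries. In group means the order over all exons was the same in 5 groups, and in LNA2 cells with isoproterenol Prkar1b stood above Prkacb.

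**Figure D1:**
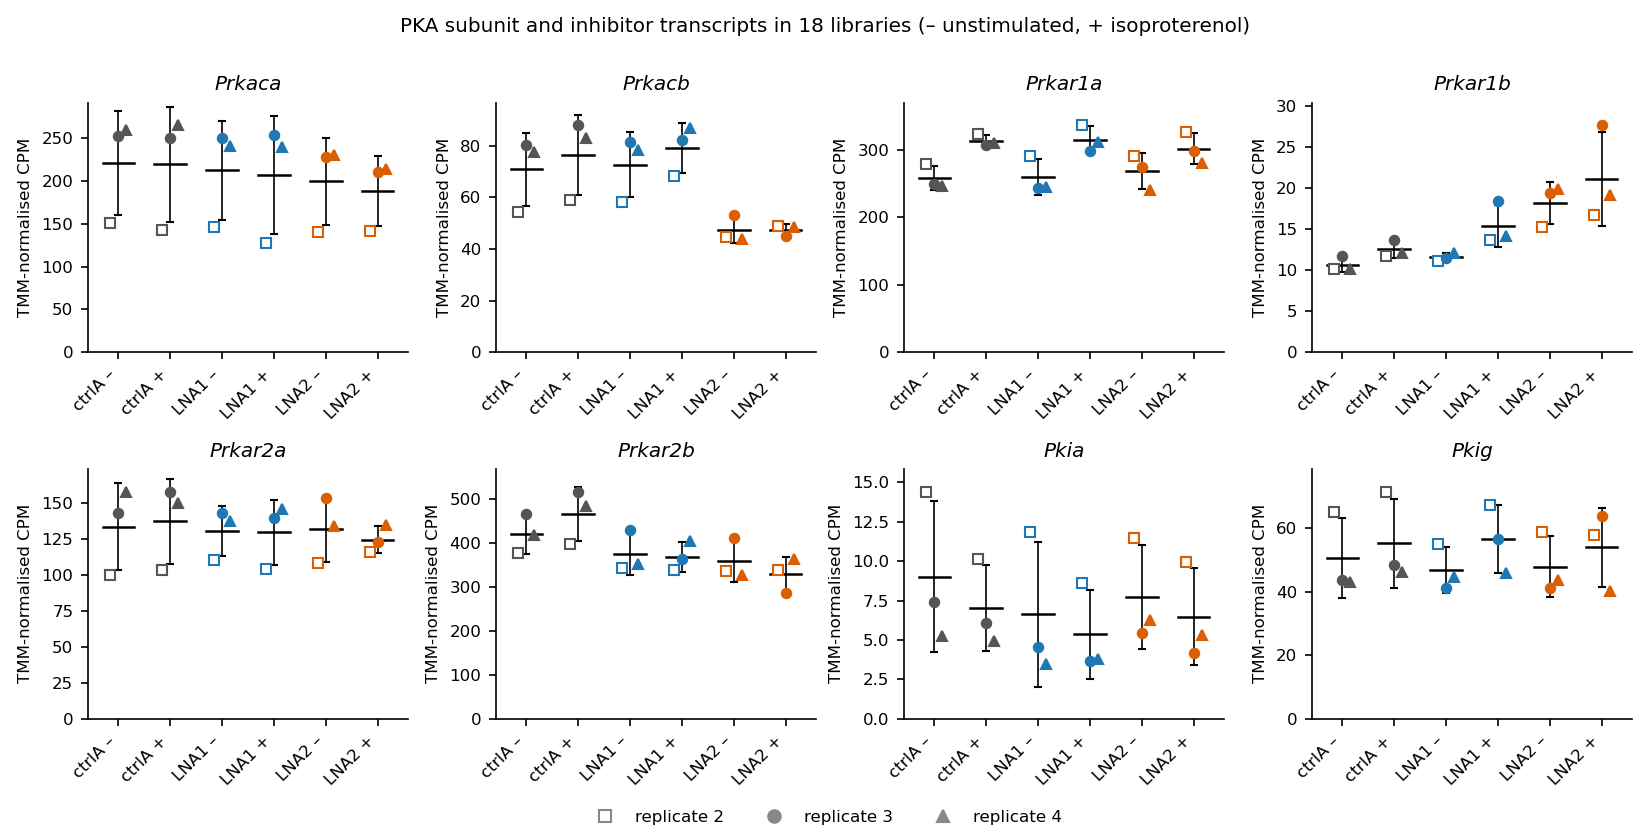
TMM-normalised CPM (linear axes from 0) of the 8 PKA genes in 18 libraries, by LNA and stimulation. Symbols are libraries, coloured by LNA (ctrlA grey, LNA1 blue, LNA2 orange), horizontal lines are means and error bars are SD (n = 3). Prkacb was between 44.0 and 53.2 CPM in the LNA2 libraries and between 54.5 and 87.8 CPM in the other 12, and open squares (replicate 2) are low for Prkaca and Prkar2a and high for Pkia.

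What the spread of each gene went with differed among the members. Of the sum of squares of log2 CPM over 18 libraries, the LNA accounted for 70.6% for Prkacb, 65.7% for Prkar1b and 50.7% for Prkar2b. The stimulation accounted for 63.2% for Prkar1a, and for at most 12.8% for any other member. For Prkaca (93.7%), Prkar2a (82.1%), Pkia (77.9%) and Pkig (63.0%) the largest share went with the replicate number. The medians over all genes tested were 8.26% for the LNA, 4.32% for stimulation and 49.4% for the number. In a joint edgeR quasi-likelihood test of the 6 groups, 1 of 8 members passed an adjusted p of 0.05, Prkar1b (adjusted p = 0.0214), while 2.94% of all genes passed. Prkacb was next (adjusted p = 0.0713). With the replicate number as a block, 5 members passed (Prkacb, Prkar1a, Prkar1b, Prkar2b and Pkia), against a background of 32.0%. The call of Prkar1b was lost without unstimulated ctrlA replicate 2 (adjusted p = 0.0593) or 4 (0.0635), without unstimulated LNA1 replicate 3 (0.0501) and without unstimulated LNA2 replicate 3 (0.0525).

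**Figure D2:**
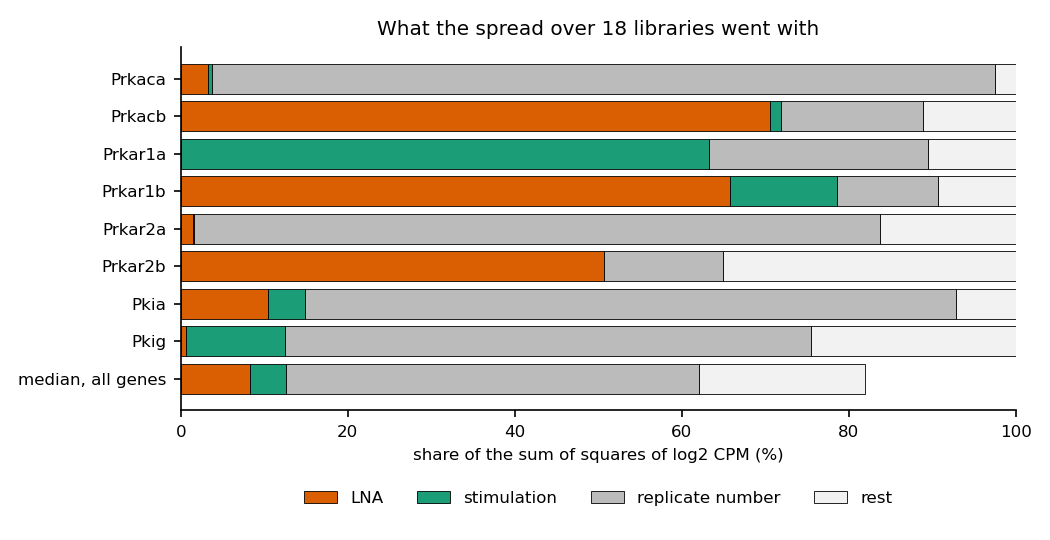
Share (%) of the sum of squares of log2 CPM over 18 libraries that went with the LNA, the stimulation, the replicate number and the rest, per PKA gene. The lowest bar gives the median of each share over all genes tested, so its parts need not add up to 100. The LNA takes 70.6% for Prkacb and 65.7% for Prkar1b, stimulation 63.2% for Prkar1a, and the number 93.7% for Prkaca.

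The comparison of LNA2 with ctrlA, averaged over stimulation, asks what one knockdown oligonucleotide did to the PKA transcripts. The transcript of 1 catalytic subunit, Prkacb, fell and that of 1 regulatory subunit, Prkar1b, rose. These were 2 of 8 members called, against 1.59% of all genes. The median log2 fold change was -0.13 over the members and -0.02 over all genes.

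Prkacb encodes Cβ, the second of the main catalytic subunits, and lies on chromosome 3 from 146729574 to 146812990 on the minus strand. In ctrlA cells it stood at 54.5, 80.2 and 77.6 CPM unstimulated and at 58.8, 87.8 and 82.8 CPM with isoproterenol. In LNA1 cells the values were 58.1, 81.3 and 78.3 CPM unstimulated and 68.1, 82.1 and 86.6 CPM stimulated. LNA2 cells had 44.6, 53.2 and 44.0 CPM unstimulated and 48.9, 44.8 and 48.3 CPM stimulated. Every LNA2 library was thus below every ctrlA and every LNA1 library, the nearest being replicate 2 of unstimulated ctrlA. Here and below, the share of all genes with such separation, or with all pairs in the same direction, is not given. Prkacb fell by 0.64 in log2 CPM against ctrlA (SE 0.135, 95% interval -0.92 to -0.35, adjusted p = 0.0263 in edgeR), to 0.643 of the ctrlA level, and was lower in 6 of 6 pairs of the same number. With the block the value was -0.62 (adjusted p = 8.69e-05). The difference was -0.28 within number 2, -0.78 within number 3 and -0.80 within number 4. It reached -0.76 (adjusted p = 3.07e-04) without the libraries of number 2. The call rested on many libraries at once. It was lost without unstimulated LNA2 replicate 2 (adjusted p = 0.0654) or 4 (0.0901), stimulated LNA2 replicate 3 (0.0665) or 4 (0.0608), unstimulated ctrlA replicate 3 (0.0832) or 4 (0.0726), stimulated ctrlA replicate 3 (0.0834) or 4 (0.0737), and also when no filter on low counts was applied (0.0501). In these 8 fits without a library the log2 value lay between -0.58 and -0.64, and over all 18 such fits between -0.58 and -0.71.

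Prkar1b encodes RIβ, a type I regulatory subunit best known from neurons. Its gene lies on chromosome 5 from 139017306 to 139150001 on the minus strand and overlaps exons of the processed transcript Gm15672 by up to 341 bases on the same strand, so reads of that stretch could have been divided between them. Prkar1b stood at 10.2, 11.7 and 10.1 CPM in unstimulated ctrlA cells and at 11.8, 13.7 and 12.1 CPM in stimulated ones. With LNA1 it was 11.1, 11.5 and 12.1 CPM unstimulated and 13.8, 18.4 and 14.1 CPM stimulated. With LNA2 it was 15.3, 19.4 and 19.9 CPM unstimulated and 16.7, 27.7 and 19.1 CPM stimulated. All 6 LNA2 libraries were above all 6 ctrlA libraries, and the highest value by far was replicate 3 of stimulated LNA2. That library also had the lowest mitochondrial share of all libraries, 2.56%, and the lowest Prkar2b value, 286 CPM. Against ctrlA, Prkar1b rose by 0.76 in log2 CPM (SE 0.131, 95% interval 0.48 to 1.04, adjusted p = 0.0072 in edgeR), which is 1.70-fold, and it was higher in 6 of 6 pairs. The call held in each of the 18 fits that left out 1 library, with adjusted p up to 0.0288. Within numbers 2, 3 and 4 the differences were 0.55, 0.87 and 0.82.

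Prkar2b, the most abundant member, had a lower mean with both targeting LNAs but did not pass the test in the fit without a block. It lies on chromosome 12 from 31958476 to 32061296 on the minus strand. In ctrlA cells it stood at 376, 466 and 418 CPM unstimulated and at 397, 516 and 484 CPM stimulated. LNA1 cells had 344, 430 and 352 CPM unstimulated and 338, 362 and 404 CPM stimulated. LNA2 cells had 335, 412 and 327 CPM unstimulated and 339, 286 and 363 CPM stimulated. The ctrlA and LNA2 groups overlapped at rest and did not overlap under isoproterenol. For LNA2 against ctrlA the log2 fold change was -0.37 (SE 0.113, adjusted p = 0.156 in edgeR). It passed with the block (-0.36, adjusted p = 0.00421), in DESeq2 (adjusted p = 0.0223) and without the libraries of number 2 (-0.41, adjusted p = 0.0400), and it was lower in 6 of 6 pairs. For LNA1 against ctrlA it was -0.25 (95% interval -0.49 to -0.01, adjusted p = 0.784, and 0.0648 with the block), also lower in 6 of 6 pairs. Both comparisons use the same 6 ctrlA libraries.

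The remaining members did not pass between LNA2 and ctrlA in the fit without a block. Prkaca, which encodes the widely expressed catalytic subunit Cα, was at -0.18 (95% interval -0.68 to 0.31, adjusted p = 0.941). It was lower in 6 of 6 pairs and passed with the block at -0.17 (adjusted p = 0.0269), which brought the members called to 4 against 20.6% of all genes. Prkar1a was at 0.00 (95% interval -0.19 to 0.19) and Prkar2a at -0.08 (-0.40 to 0.24). The inhibitors Pkia (-0.18, interval -0.98 to 0.62) and Pkig (-0.06, interval -0.42 to 0.31) did not pass either. Summed immune markers were 7.89 to 12.1 CPM in unstimulated ctrlA and 13.7 to 26.3 CPM in unstimulated LNA2 libraries, and 11.9 to 24.1 and 25.0 to 42.8 CPM in the stimulated ones. Nearly all of this was Cd68, at 14.2 ± 6.68 and 25.6 ± 10.3 CPM (SD, n = 6; log2 fold change 0.88, adjusted p = 0.0570), while Ptprc and Adgre1 were at or under 3 counts. Of the marker lists of cell types, 1 gene passed for LNA2 against ctrlA without the block, Pdgfra, a receptor that marks preadipocytes and fibroblasts. It was at 7.41 ± 0.488 CPM in ctrlA and 12.1 ± 2.17 CPM in LNA2 libraries (SD, n = 6), a log2 fold change of 0.71 (adjusted p = 0.0121), and it also passed for LNA1 (0.89, adjusted p = 0.00743). The median of the 6 tested genes of that list was 0.08 for LNA2 and -0.27 for LNA1. Summed brown adipocyte markers were 283 to 363 CPM in unstimulated ctrlA and 213 to 323 CPM in unstimulated LNA2 libraries. In the stimulated ones they were 406 to 458 and 298 to 354 CPM, with no overlap. Of these markers 4 were tested and 0 passed without the block for LNA2, around a median of -0.34. The 6 adipocyte markers had a median of -0.10, and 0 passed. With the block, where 20.6% of all genes passed for LNA2 against ctrlA, Cd68 and 3 preadipocyte or fibroblast markers (Pdgfra, Pdgfrb and Ly6a) were called higher. Col1a2 of the same list, Elovl3 of the brown adipocyte list and Pparg and Fabp4 of the adipocyte list were called lower. The part of any of these markers in the LNA2 differences was not tested. In bulk RNA, fewer cells of a type and less RNA per cell cannot be told apart.

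**Figure D3:**
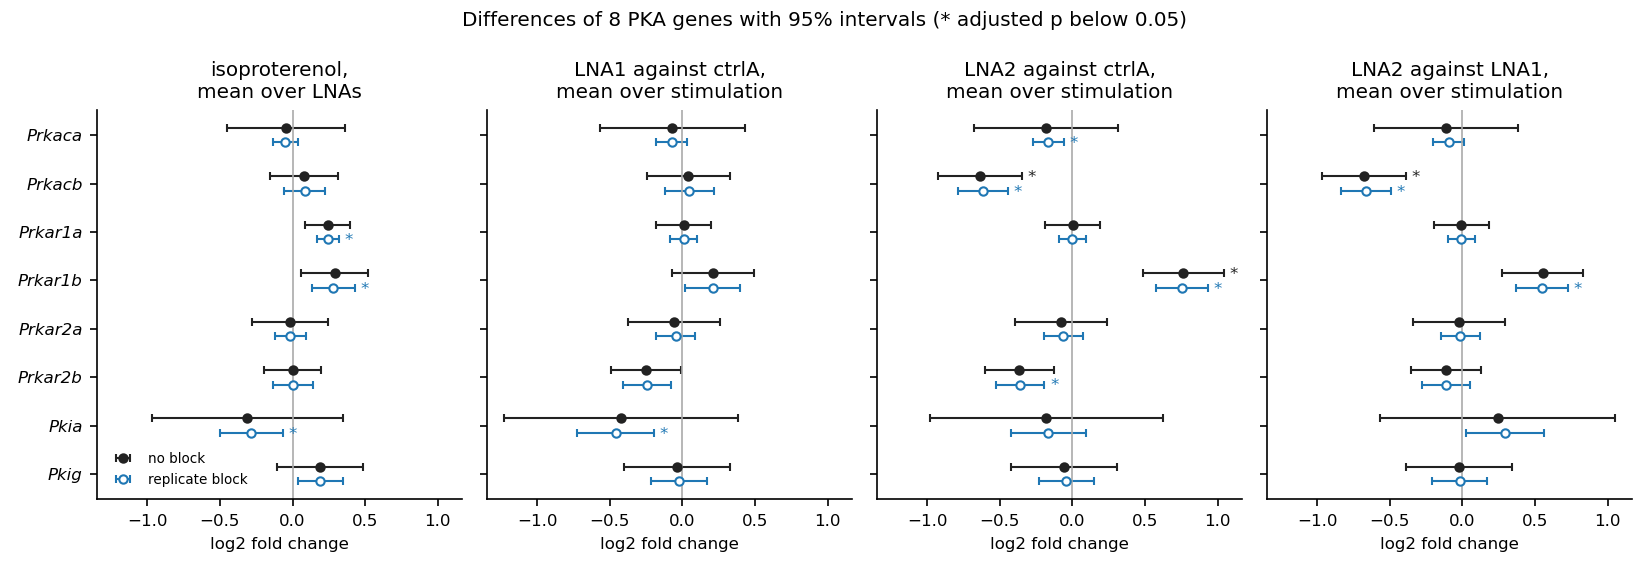
Log2 fold changes of the 8 PKA genes with 95% intervals in 4 comparisons, from the edgeR fit without a block (black) and with the replicate number as a block (blue, open). Asterisks mark an adjusted p below 0.05. Without the block only Prkacb (-0.64 and -0.68) and Prkar1b (0.76) are marked, in the panels with LNA2.

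LNA2 was next compared directly with LNA1, which asks whether the oligonucleotides against the same RNA left the same PKA transcripts. Of the 8 members 1 was called, Prkacb, against 0.97% of all genes. Prkacb fell by 0.68 in log2 CPM (SE 0.135, 95% interval -0.97 to -0.39, adjusted p = 0.0230 in edgeR) and was lower in 6 of 6 pairs. This call was lost without replicate 2 (adjusted p = 0.0702) or 4 (0.0872) of unstimulated LNA2, replicate 3 (0.0673) or 4 (0.0551) of stimulated LNA2, replicate 3 (0.0781) or 4 (0.0775) of unstimulated LNA1, replicate 3 (0.0693) or 4 (0.0820) of stimulated LNA1, and without the filter (0.0570). Over all 18 fits without a library the log2 value lay between -0.63 and -0.74, and it was -0.66 without the filter. Prkar1b was 0.55 higher (SE 0.131, 95% interval 0.27 to 0.83, adjusted p = 0.0669) and higher in 6 of 6 pairs. It passed with the block (adjusted p = 5.16e-04), in DESeq2 (0.00784), with upper-quartile scaling (0.0443) and without the number 2 libraries (0.0193). It also passed without replicate 2 of unstimulated LNA2 (0.0437) or of stimulated LNA2 (0.0334). With the block 2 members were called, against 15.4% of all genes. Prkar2b was at -0.11 (95% interval -0.35 to 0.13). Of the cell type markers 0 passed here without the block. With it, Cd68 and the preadipocyte or fibroblast markers Col1a1, Pdgfrb and Ly6a were called higher. Pparg, Adipoq and Plin1 of the adipocyte list were called, 2 higher and 1 lower. The part of these markers in the members' values was not tested.

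With LNA1 against ctrlA, 0 of 8 members passed in edgeR or in DESeq2. Of all genes 0.475% passed in edgeR and 188 of 14941 in DESeq2. At an unadjusted p of 0.05, 1 member and 899 genes passed. The intervals were narrow for Prkar1a (0.01, 95% interval -0.18 to 0.20) and Prkacb (0.04, -0.24 to 0.33), and wider for Prkaca (-0.07, -0.57 to 0.43). Prkar1b was at 0.21 (-0.07 to 0.49). Of the cell type markers, the fit with the block called Cd68 and Pdgfra higher and Plin1, Elovl3 and Col1a2 lower. The part of these markers in the members' values was not tested. With the block 1 member passed, the inhibitor Pkia, against 7.8% of all genes. Its value was -0.46 (SE 0.125, adjusted p = 0.0335 with the block, and 1 without), and it was lower in 6 of 6 pairs.

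Pkia encodes PKIα and was the least abundant member, with 34 to 254 counts per library. It stood at 14.4, 7.43 and 5.22 CPM in unstimulated ctrlA and at 10.1, 6.05 and 4.90 CPM in stimulated ctrlA. In LNA1 cells it was 11.9, 4.52 and 3.46 CPM unstimulated and 8.61, 3.64 and 3.81 CPM stimulated. In LNA2 cells it was 11.5, 5.46 and 6.23 CPM unstimulated and 9.97, 4.17 and 5.30 CPM stimulated. Every library of number 2 lay above every library of the other numbers, 8.61 to 14.4 against 3.46 to 7.43 CPM, and within each number the LNA1 value was below its ctrlA partner.

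β-adrenergic stimulation, averaged over the LNAs, moved no member past the threshold in the edgeR fit without a block. In edgeR 0 of 8 members passed while 4.58% of all genes did, and 2 members and 2242 genes had an unadjusted p below 0.05. The same libraries showed a response, since Ucp1, the uncoupling protein of brown fat, went from 1.12 ± 0.346 to 12.9 ± 2.25 CPM (SD, n = 9 each) and rose by 3.51 in log2 CPM (adjusted p = 1.12e-08). Of the other cell type markers 4 passed with isoproterenol. The brown fat gene Cidea rose by 1.27 (adjusted p = 0.00110), the immune marker Cd68 by 0.90 (0.00618) and the preadipocyte marker Ly6a by 1.58 (0.0415, a call that held in 7 of 18 fits without a library). Adipoq, the adipocyte hormone adiponectin, fell by 0.71 (0.00730). The part of these markers in the members' values was not tested. DESeq2 passed 1 member, Prkar1a. With the block 3 passed, Prkar1a, Prkar1b and Pkia, against 26.4% of all genes. The block also added marker calls, with Elovl3 and the muscle marker Acta1 higher and Plin1 and Fabp4 lower. Of the preadipocyte or fibroblast list Col1a1, Pdgfrb, Col1a2 and Ly6a were called, 2 higher and 2 lower. Their part was not tested either.

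Prkar1a encodes RIα, the regulatory subunit found in nearly all cells. It lies on chromosome 11 from 109649405 to 109669656 on the plus strand. In ctrlA cells it stood at 279, 249 and 247 CPM unstimulated and at 324, 307 and 310 CPM stimulated. LNA1 cells had 290, 244 and 246 CPM unstimulated and 336, 298 and 312 CPM stimulated. LNA2 cells had 292, 274 and 240 CPM unstimulated and 327, 299 and 281 CPM stimulated. Stimulated and unstimulated libraries did not overlap in ctrlA or LNA1 cells and overlapped in LNA2 cells, and all 9 pairs were higher with isoproterenol. The share of all genes with these patterns is not given. The log2 fold change was 0.24 (SE 0.0724, 95% interval 0.09 to 0.40), or 1.18-fold, with an adjusted p of 0.0769 in edgeR. It passed in DESeq2 (adjusted p = 0.00125), with the block (8.21e-05) and without the number 2 libraries (0.0106). Within numbers 2, 3 and 4 the differences were 0.20, 0.24 and 0.30. Leaving out any 1 library kept the adjusted p between 0.0501 and 0.158.

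A cAMP response element, the site bound by CREB, has the letters TGACGTCA, with TGACG as its core, and both strands of the 250 bases before each RefSeq start site (GRCm38.p6) were searched for them. The table held start sites for 7 of the members and no entry for Pkia. The full letters were found for 1 member, in 1 of the 6 windows of Prkar1a, where they lay 49 bases before the start at 109650949 on the plus strand.

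Prkar1a, chr11:109650890-109650917, plus strand: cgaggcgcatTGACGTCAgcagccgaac

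Capitals mark the matched letters. The full letters occurred in 1.55% of all 32851 windows and in 2.97% of the 10443 tested genes with an entry. The core alone, which also occurs within the full letters, was found for Prkaca, Prkacb, Prkar1a, Prkar1b and Pkig and in 30.3% of tested genes, and not for Prkar2a or Prkar2b.

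The other members differed with isoproterenol as follows. Prkar1b was at 0.29 (SE 0.107, adjusted p = 0.170, and 0.00707 with the block), and 8 of 9 pairs were higher, with replicate 4 of LNA2 the exception. Pkig, the more abundant of the inhibitors among the members, was at 0.19 (95% interval -0.11 to 0.49), with 7 of 9 pairs higher. Its mean level was 48.5 ± 8.88 CPM at rest and 55.4 ± 10.9 CPM under isoproterenol (SD, n = 9 each). Pkia was at -0.31 (95% interval -0.97 to 0.35, adjusted p = 0.787) and 8 of 9 pairs were lower, and with the block it was at -0.28 (adjusted p = 0.0492). Prkacb was at 0.08 (-0.16 to 0.31), Prkaca at -0.04 (-0.45 to 0.36), Prkar2a at -0.02 (-0.28 to 0.24) and Prkar2b at 0.00 (-0.20 to 0.20).

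**Figure D4:**
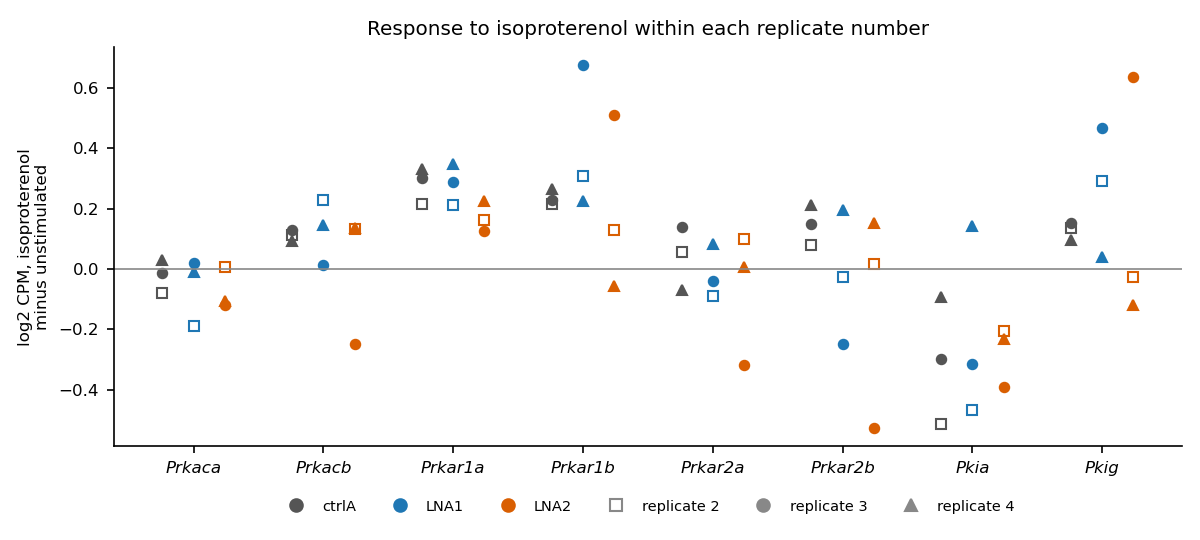
Differences in log2 CPM between stimulated and unstimulated libraries of the same number and LNA, for the 8 PKA genes (9 pairs each). Colours mark the LNA and symbols the replicate number, and the grey line marks 0. All 9 Prkar1a pairs are above 0, and 8 of 9 Pkia pairs are below it.

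Within each LNA, 3 libraries were compared with 3, and 0 of 8 members passed in edgeR or DESeq2. The edgeR backgrounds were 0.488% of all genes in ctrlA, 0.702% in LNA1 and 0.395% in LNA2 cells. In DESeq2 198, 263 and 177 of 14941 genes passed. At an unadjusted p of 0.05 the counts were 1 member and 812 genes, 2 members and 1037 genes, and 0 members and 896 genes. Prkar1a was at 0.28 in ctrlA, 0.28 in LNA1 and 0.17 in LNA2 cells. With the block it passed in ctrlA (adjusted p = 0.00838) and LNA1 (0.00705) and had an adjusted p of 0.0997 in LNA2, against 7.88, 9.84 and 9.55% of all genes. The difference between these responses was itself tested. For the interaction with LNA1 and with LNA2, 0 members and 0.0% of all genes passed in edgeR, and 0 members had an unadjusted p below 0.05, against 105 and 116 genes. DESeq2 passed 0 members as well, and 0 and 2 of 14941 genes. The Prkar1a interaction was -0.00 for LNA1 (95% interval -0.38 to 0.38) and -0.11 for LNA2 (-0.49 to 0.27). That of Prkar2b was -0.18 (-0.66 to 0.30) and -0.27 (-0.75 to 0.21), with the response at 0.15 in ctrlA, -0.03 in LNA1 and -0.12 in LNA2 cells.

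Prkaca and Prkar2a varied mostly with the replicate number. Prkaca lies on chromosome 8 from 83972993 to 83996443 on the plus strand, and its counts may be shared in part with its paralogue Prkacb. It was 151, 253 and 260 CPM in unstimulated ctrlA, 146, 251 and 242 CPM in unstimulated LNA1 and 141, 228 and 230 CPM in unstimulated LNA2 cells. With isoproterenol it was 143, 251 and 265 CPM, 128, 254 and 240 CPM, and 142, 210 and 214 CPM. Over all groups the 6 libraries of number 2 had 142 ± 7.64 CPM (SD) and the other 12 had 242 ± 17.6 CPM, without overlap. Prkar2a (chromosome 9, 108689314 to 108750436, plus strand) encodes RIIα. It ranged from 99.8 to 116 CPM in number 2 and from 123 to 158 CPM in the others. Pkig (chromosome 2, 163658386 to 163726158, plus strand) was higher in number 2, at 62.7 ± 6.37 against 46.6 ± 7.04 CPM. These shifts moved together with the mitochondrial and rRNA shares given above, whose part in them was not tested.

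The make-up of the PKA transcript pool followed from these levels and is given without a test, per kilobase of exon. Regulatory transcripts exceeded catalytic ones 2.27 ± 0.547-fold (SD, n = 18). This ratio was 2.78 to 3.21 in the libraries of number 2 and 1.68 to 2.17 in the others. Type II subunits made up 64.1 ± 4.54% of regulatory transcripts, Prkar2b alone 53.6 ± 4.09%. Prkacb was 6.70 ± 1.51% of catalytic transcripts in the 6 LNA2 libraries and 9.22 ± 1.46% in the other 12. The ranges overlapped, 5.14 to 8.92% against 7.81 to 13.1%, but not within a number. They were 8.23 to 8.92% against 9.28 to 13.1% for number 2, 5.70 to 6.20% against 8.24 to 9.02% for number 3, and 5.14 to 6.02% against 7.81 to 9.29% for number 4. Prkar1b was 2.81 ± 0.730% of regulatory transcripts with LNA2 and 1.64 ± 0.316% in the other 12 libraries. Pkig made up 87.6 ± 3.84% of the transcripts of Pkia and Pkig together. Pkib, which was not a member, was left out of this sum. As above, the level of Pkig depended on the length used. The regulatory to catalytic ratio itself was 2.31 ± 0.542 with LNA2 and 2.25 ± 0.573 otherwise, a smaller difference than the spread between libraries. With the longest coding transcript as length, Prkacb was 14.4 ± 3.02% of catalytic transcripts and the ratio 2.24 ± 0.521 over all libraries.

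**Figure D5:**
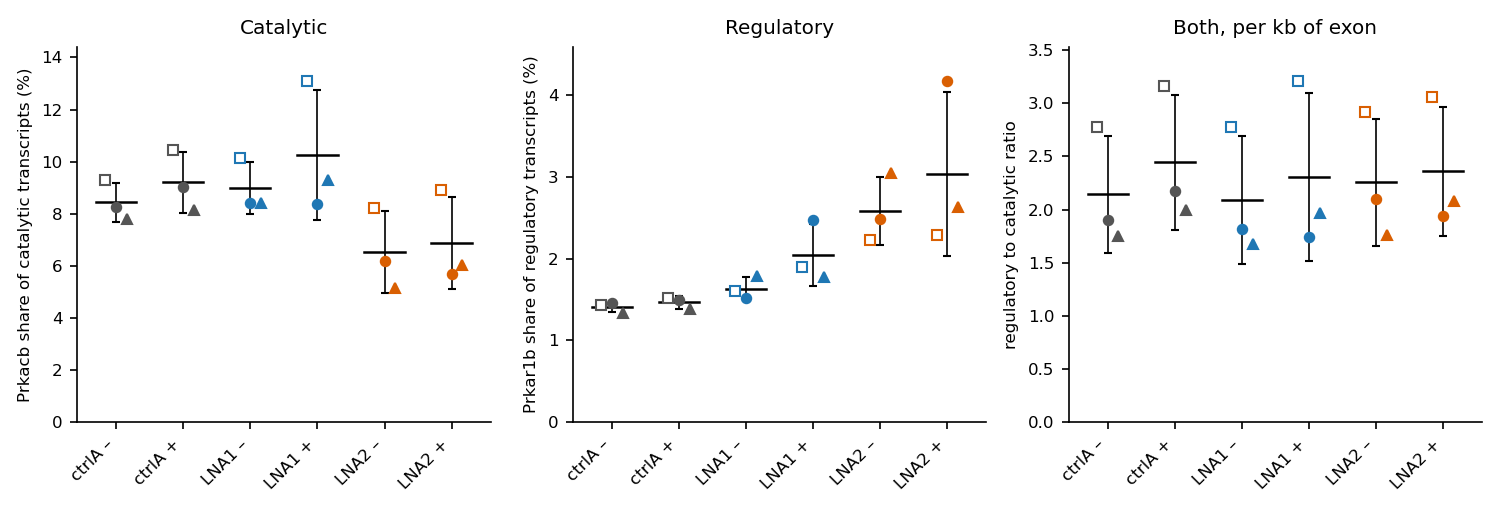
Make-up of the PKA transcript pool per kb of exon in 18 libraries: Prkacb as a share (%) of catalytic transcripts, Prkar1b as a share (%) of regulatory transcripts, and the ratio of regulatory to catalytic transcripts. Open squares are replicate 2, circles replicate 3 and triangles replicate 4, coloured by LNA (ctrlA grey, LNA1 blue, LNA2 orange), with mean and SD (n = 3). The Prkacb share is 6.70% on average with LNA2 and 9.22% otherwise, and the ratio is above 2.77 in each library of number 2.

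The members varied together only in part. After the mean of each replicate number was removed, Pearson's r over the 18 libraries was 0.69 between Prkaca and Prkar2b, 0.68 between Prkar2a and Prkar2b, 0.66 between Prkacb and Prkar2b and 0.65 between Prkaca and Prkacb. Prkar1b ran opposite to Prkaca (r = -0.79), Prkacb (r = -0.79) and Prkar2b (r = -0.76). These values are descriptions over libraries that share scaling, groups and numbers. Among 13170 genes with a mean of at least 1 CPM, the profiles most like Prkacb were those of Lmbrd1 (r = 0.98), Fmnl2 (0.97) and Snrpd1 (0.97). Those most like Prkar1b were Arc (0.97), Rhod (0.96) and Spire2 (0.95), and those most like Pkia were Arpc4 (0.90), Klf11 (0.87) and Ermard (0.87), each over 18 libraries.

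Genes around PKA were examined from lists of the pathway. Upstream, 7 of 10 adenylyl cyclase genes were tested and 2 passed with isoproterenol, where 4.58% of all genes passed, with a list median of -0.12. Adcy3, a cyclase known from thermogenic fat, went from 4.25 ± 1.37 to 18.8 ± 7.77 CPM (SD, n = 9 each), a rise of 2.14 in log2 fold change with SE 0.288 (adjusted p = 3.31e-04). Adcy5 fell by 0.65, from 6.21 ± 3.44 to 3.62 ± 1.32 CPM (adjusted p = 0.0288), a call that held in 5 of the 18 fits that left out 1 library. With the block 4 of the 7 cyclases passed, against 26.4% of all genes.

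The anchoring proteins hold type II, and some type I, holoenzymes at organelles. Of 28 listed, 27 were in the table and 21 were tested, and 4 passed with isoproterenol, against 4.58% of all genes, 2 in each direction, around a median of 0.01. Ezr, which links membranes to actin, rose by 0.70 (29.7 ± 6.61 to 47.9 ± 9.29 CPM, adjusted p = 0.0170), and Nbea rose by 0.48 (adjusted p = 0.0349). Pde4dip, a centrosomal and Golgi scaffold, fell by 0.47 (111 ± 9.41 to 80.0 ± 8.86 CPM, adjusted p = 0.00406), and Akap7 fell by 0.42 (adjusted p = 0.0230). The calls of Ezr and Pde4dip held in all 18 fits that left out 1 library, that of Nbea in 5 and that of Akap7 in 9. With the block 7 of 21 passed, against the same 26.4%.

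Downstream, 1 of 11 PKA substrate genes passed with isoproterenol, against 4.58% of all genes. It was Sik1, a kinase that restrains CREB coactivators. Sik1 went from 44.8 ± 13.7 to 88.8 ± 27.7 CPM and rose by 0.98 (adjusted p = 0.0221, held in 16 of 18 such fits). With the block 4 of 11 passed, against 26.4% of all genes, including Lipe, hormone-sensitive lipase, at -0.41. Of the other cAMP receptors 4 of 5 were tested and 0 passed, with a median of -0.31. Of the further PKA genes Pkib, Prkx and Pja2 were all tested and 0 passed. The background of 4.58% applies to both of these lists. For LNA1 and LNA2 against ctrlA, 0 genes of any of these lists passed without the block, where 0.475% and 1.59% of all genes passed. With the block, LNA1 and LNA2 against ctrlA passed 1 and 4 anchoring proteins, 1 and 3 cyclases, 1 and 1 other cAMP receptors and 2 and 3 substrates, while 7.8% and 20.6% of all genes passed. Adcy5 was the only listed gene that passed between LNA2 and LNA1 without the block, at 2.86 ± 0.783 CPM in the LNA2 libraries and 7.59 ± 3.45 CPM in the LNA1 libraries (SD, n = 6 each), where 0.97% of all genes passed. With the block 4 of 21 anchoring proteins, 2 of 7 cyclases and 5 of 11 substrates passed in that comparison, against 15.4% of all genes.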

How the data were processed

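Polyadenylated RNA of wt1-SAM cells was sequenced in 18 paired-end NEBNext Ultra II libraries. The authors filtered reads by quality using cutadapt, and salmon quantification was against transcripts of Gencode M22 on GRCm38 (program versions and strand setting not given in the sources used here). The deposited values are expected counts per gene, already rounded to whole numbers. Fragments that fit several transcripts are divided by probability, so paralogues and overlapping genes carry uncertain counts. 0 columns of other samples were present. Coordinates and lengths come from the GENCODE M21 annotation, one release older, counted from 1, and start sites from RefSeq (GRCm38.p6).

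The tests used edgeR 4.0.16 (R 4.3.3): filterByExpr (minimum count 10, minimum total 15), TMM, 1 quasi-likelihood fit over 18 libraries with 1 term per group, two-sided tests and Benjamini-Hochberg adjustment over 14949 genes. A gene was called at an adjusted p below 0.05. Levels are TMM-normalised CPM, and correlations and sums of squares use log2 CPM (prior count 2). Totals were 9167560 to 19723021 counts. The floor of 3 counts covers counting error only, as does any precision taken from depth. The fit was tested on simulated counts that held no effect of the replicate number, unlike these libraries. Labels do not say whether the replicates were separate cultures, so p-values measure the spread between these libraries, which may be technical. No 2 libraries of a group were alike within sampling noise. Between replicates 3 and 4, chi-square per degree of freedom was 36.5 in stimulated LNA2 and 4.32 to 10.5 in the other groups.

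Samples of the same number deviated together from their group means: all 45 pairs had a correlation over 0.1 (0.24 to 0.72, median 0.43). The 90 pairs of different numbers and groups ran from -0.60 to 0.40. Number 2 stood furthest apart: pairs within it were at 0.65 to 0.72, whereas pairs of a number 3 with a number 4 library (0.07 to 0.40) overlapped those within number 3 (0.25 to 0.51) and within number 4 (0.24 to 0.47). By the first of these checks the numbers were treated as pairing the libraries. Most pairs of a number 3 with a number 4 library also exceeded 0.1, so this check could not show pairing within those numbers. Values with the number as a block are given where they change the call of a member, and as counts for the lists. Alternatives were the block, DESeq2 1.42.0, upper-quartile scaling, no filter, the study's further limit on fold changes (log2 0.5), each library left out, and the libraries of number 2 left out. DESeq2 with the block and number 2 left out with the block were added after the data were seen. Members and lists were chosen with earlier results of these data known. All members are named, with up to 4 genes per list that passed under isoproterenol, and the 3 genes most like each of the 3 members whose group means varied most.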

Additional observations from a re-analysis of the deposited data

How the results depend on the processing

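With the replicate number as a block, 5 members passed the joint test, 3 isoproterenol on average, 1 isoproterenol in ctrlA, 1 in LNA1, 1 LNA1 against ctrlA, 4 LNA2 against ctrlA and 2 LNA2 against LNA1. The block changed no other call of a member. With DESeq2 the counts were 3 in the joint test, 1 for isoproterenol, 3 for LNA2 against ctrlA (also Prkar2b) and 2 for LNA2 against LNA1, where 1125, 1064, 523 and 338 of 14941 genes passed. With DESeq2 and the block together the joint, isoproterenol and LNA2 against LNA1 counts were 5, 3 and 2 (5263, 3825 and 2317 of 14949 genes). Isoproterenol passed 1 member in each LNA. Of all genes 1299 of 14949 passed in ctrlA, 1592 of 13789 in LNA1 and 1652 of 12630 in LNA2. Against ctrlA, 2 members passed for LNA1 (1293 of 14949 genes) and 4 for LNA2 (3134 of 13789). Upper-quartile scaling gave 2 in the joint test and 2 for LNA2 against LNA1 (451 and 152 of 14949 genes). Without the filter on low counts, where 35899 genes were tested, these 2 counts were 0. LNA2 against ctrlA kept 1 member, Prkar1b, since Prkacb had an adjusted p of 0.0501. Of these genes 367 passed the joint test, 107 LNA2 against LNA1 and 153 LNA2 against ctrlA. Without the libraries of number 2 the counts were 2 in the joint test, 1 for isoproterenol, 3 for LNA2 against ctrlA (also Prkar2b) and 2 for LNA2 against LNA1, where 1492, 1629, 1343 and 761 of 14979 genes passed. The same number was left out with the block for 2, 1 and 2 members and 4 for LNA2 against ctrlA (2010, 1964, 1079 and 1782 of 14979 genes). With an absolute log2 fold change above 0.5 also required, the counts for LNA2 were 2 against ctrlA and 1 against LNA1, as without it. At that limit 213 and 138 of 14949 genes passed. Leaving out 1 library gave 0 to 2 members in the joint test, 1 to 2 for LNA2 against ctrlA and 0 to 2 for LNA2 against LNA1. Of all genes, 296 to 436, 118 to 288 and 75 to 160 passed in these fits. Apart from the filter's larger number of tests, the cause of these changes was not tested. Of 1800 recomputed log2 fold changes of members, 0 that had been called changed sign, 18 lost and 33 gained a call, and 186 changed sign while not called. Pkia, with as few as 34 counts in a library, and Prkar1b, with as few as 119, had the least depth behind them.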
